A study of Mus musculus with 8 samples.

Results

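The genes described here are 7 established targets of the transcriptional coactivator YAP together with Edn1, the gene for the vasoconstrictor peptide endothelin-1, 8 genes of the 22180 that could be named on the arrays. The 7 targets were listed by name, and Edn1 was chosen by its measured differences, since its signal was lower with double-stranded DNA (dsDNA) in all 4 cell lines of the study. For each gene the probe set with the highest mean was taken among those mapped to that symbol only. All 8 genes were found, and of these only Ccn2 had a second probe set. Because the dsDNA response chose Edn1, all differences with dsDNA are given for the 8 genes as a description without a test.

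The cells were mouse embryonic fibroblasts, labelled as primary, that lacked endogenous STING, the adaptor that relays the cGAS signal for DNA in the cytosol. All 8 samples shared this deficiency and had been reconstituted with the empty pBabe vector, with hSTING, with N154S or with R284S. The series' design text calls hSTING wild-type STING and N154S a mutant of the autoinflammatory disease SAVI. Each of the 4 lines had 1 control culture and 1 culture given dsDNA with Lipofectamine 2000 for 9 h, so there was 1 array per group and no spread within a group. The labels do not state whether control cells received the reagent without DNA, so DNA and reagent cannot be told apart. Each line is a single cell population, so a difference between lines includes any other difference between the populations.

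YAP and its relative TAZ bind TEAD factors in the nucleus and switch on genes of growth, matrix and the cytoskeleton when cells spread on a stiff surface. The Hippo kinases, ending in LATS1 and LATS2, phosphorylate YAP and hold it in the cytoplasm. In fibroblasts many of the same genes also depend on the serum response factor SRF, whose coactivators of the MRTF family are released when actin polymerises. Among the genes described here, Ccn1, Ccn2 and Thbs1 encode secreted matricellular proteins and Ankrd1 a stress-responsive ankyrin repeat protein. Amotl2 and Lats2 are themselves inhibitors of YAP, so their induction is a feedback, and Axl encodes a receptor tyrosine kinase.

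To show what the upstream regions share, 250 bases before an annotated transcript start were read from RefSeq (GRCm38.p6), which had an entry for 6 of the 8 genes and 2 entries for Lats2. For Edn1, Ccn1 and Ankrd1 the window ends at the gene's outer boundary. For Amotl2 and 1 Lats2 entry it lies inside the annotated gene, and for Axl and the other Lats2 entry it overlaps it. The 3 regions printed here are those of Edn1, Ccn1 and Ankrd1, whose signals are compared first. Capitals mark the TEAD motif CATTCC, or its reverse complement GGAATG.
Edn1, chr13:42301226-42301475, plus strand: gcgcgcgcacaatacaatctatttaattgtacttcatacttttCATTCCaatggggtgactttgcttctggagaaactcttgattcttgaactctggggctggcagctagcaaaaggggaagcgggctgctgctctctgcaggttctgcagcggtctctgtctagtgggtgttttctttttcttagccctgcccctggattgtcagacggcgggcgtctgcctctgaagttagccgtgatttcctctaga
Ccn1, chr3:145649986-145650235, minus strand: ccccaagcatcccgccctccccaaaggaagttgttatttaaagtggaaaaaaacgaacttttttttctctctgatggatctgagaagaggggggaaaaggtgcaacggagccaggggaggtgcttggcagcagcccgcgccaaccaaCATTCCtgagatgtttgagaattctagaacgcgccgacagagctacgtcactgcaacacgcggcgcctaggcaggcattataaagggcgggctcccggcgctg
Ankrd1, chr19:36119845-36120094, minus strand: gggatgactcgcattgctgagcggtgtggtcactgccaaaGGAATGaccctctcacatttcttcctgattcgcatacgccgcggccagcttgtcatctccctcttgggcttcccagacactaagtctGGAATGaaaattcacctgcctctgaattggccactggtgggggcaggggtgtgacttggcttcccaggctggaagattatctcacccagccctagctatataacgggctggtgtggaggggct

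The TEAD motif began 207 bases before the gene start of Edn1, 103 before that of Ccn1, and 210 and 123 before that of Ankrd1. The windows of Amotl2 and Axl also held it, 65 and 233 bases before the transcript start that each window was taken from and not before the outer boundary of the gene. Neither window of Lats2 held it. In all, 5 of the 7 windows held it on either strand, from 5 of the 6 genes with an entry. Of the 32851 promoter windows of the same length, 12.6% held it. The AP-1 motif TGANTCA was in 0 of the 7 windows and in 6.75% of all windows. The CArG box, the site of SRF, was also in 0 of 7 and in 1.47% of all. These are matches of letters in a short window, and none of them was measured as a bound site.

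The labelled cell type was checked against marker genes. The 7 measured fibroblast markers read between 6.61 and 12.8 on the log2 scale, all above the array medians of the named genes, which were 4.42 to 4.47. Of 6 endothelial markers 4 (Pecam1, Tek, Emcn, Tie1) were below the array median on all 8 arrays, and Cdh5 and Kdr read at most 5.20. Of 6 leukocyte and of 5 epithelial markers 4 each were below it on all arrays. The leukocyte exceptions were Csf1r, at 4.30 to 4.80, and Cd68, at 5.77 to 6.52. The epithelial exception Cldn4 was 3.79 in vector and 5.5 in R284S control cells. All 6 smooth muscle markers were above the median on at least some arrays, with a list median of 6.57 to 7.56 in control and 6.10 to 7.37 in dsDNA samples, and their part in the differences below was not tested. In bulk samples fewer cells of a type and less RNA per cell cannot be told apart. As deposited, the signal distributions of the 8 arrays were almost alike, so all differences are relative to the bulk of probe sets on an array.

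Edn1 was lower with dsDNA in every line and had the widest range of the 8 genes, 1.93 on the log2 scale. In control cells it read 6.87 with vector, 6.71 with hSTING, 6.79 with N154S and 6.16 with R284S. With dsDNA it read 6.19, 4.94, 5.60 and 5.62 in the same order. The highest signal was that of vector control cells and the lowest that of hSTING cells with dsDNA. That lowest signal of 4.94 was close to the median named gene of its array, 4.45, and whether such dim signals distort differences was not tested. The groups overlapped slightly, since R284S control cells lay below vector cells with dsDNA. The difference was -0.68 in vector, -1.77 in hSTING, -1.19 in N154S and -0.54 in R284S cells. As folds these were 1.60, 3.41, 2.28 and 1.45 times lower. With 1 array per group, neighbours in this order could not be set against a spread.

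Edn1 was thus 2-fold or more lower in hSTING and in N154S cells, where 0.5% and 0.108% of all genes were 2-fold or more lower. In vector and R284S cells 0.0361% and 0.0406% of genes passed that limit and Edn1 did not. Averaged over the lines its difference was -1.045, given without an error because the dsDNA response chose Edn1. Across all genes, 10.4% were lower with dsDNA in all 4 lines. The smallest Edn1 difference, -0.54 in R284S cells, was then used as a limit, which Edn1 met by construction. Only 3 genes were at or below it in every line, namely Edn1, the small nucleolar RNA Snord13 and the microRNA gene Mir5123. The last pair was named after its values were seen. Since Edn1 set the limit, the count is no test of Edn1.

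**Figure D1:**
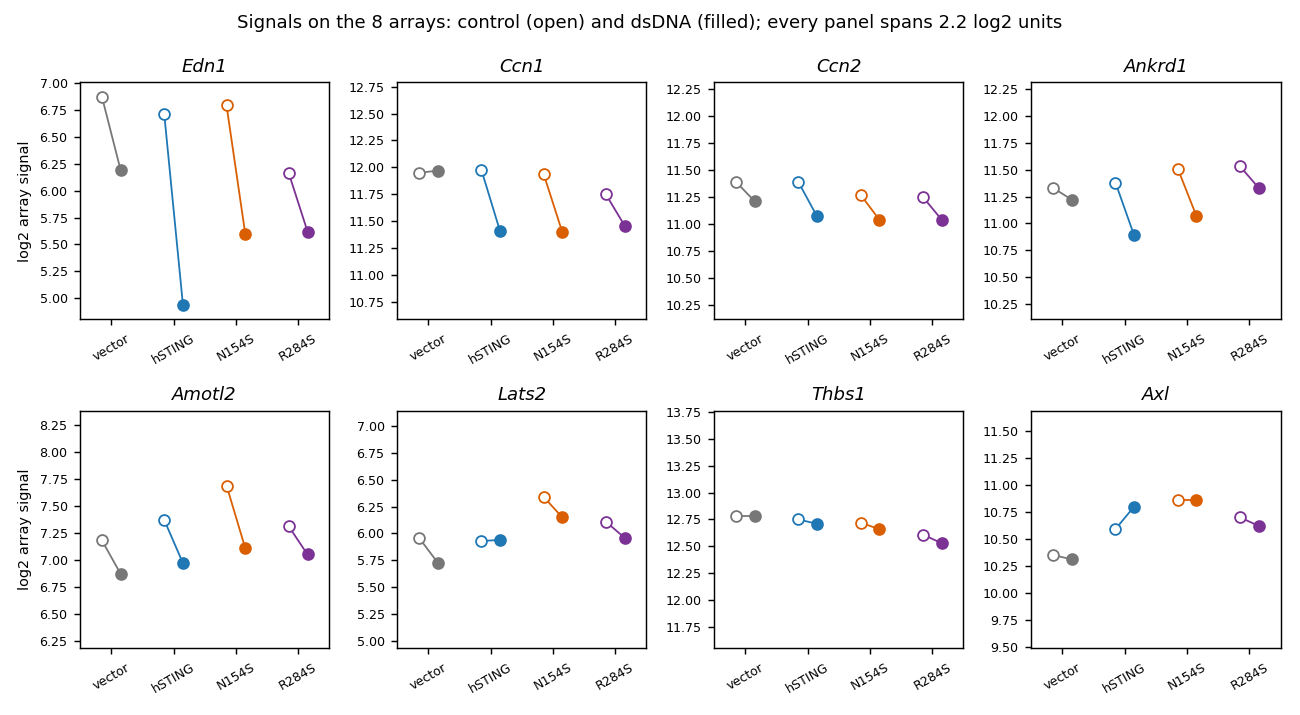
Log2 array signal (vertical axis) of each of the 8 genes in the 4 lines, with control as open and dsDNA as filled circles joined by a line; each circle is 1 array. All vertical axes span the same distance, and the drop of Edn1 from 6.71 to 4.94 in hSTING cells is the widest of the plotted pairs.

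The order of the lines differed between the interferon-stimulated check genes. Ifit1, an interferon-stimulated antiviral gene, was higher with dsDNA by 3.41 in vector cells, 2.42 in hSTING, 0.80 in N154S and 0.01 in R284S cells. Ccl5, an inflammatory chemokine, was higher by 0.15, 4.10, 0.57 and 0.08 in the same lines, which is the order by size of the Edn1 differences. No other check gene had that order. For Ccl5 the places of vector and R284S cells rest on 0.15 against 0.08, from 1 pair of arrays each. A link between Ccl5 and Edn1 was not tested. Isg15, Usp18 and Irf7 differed most in vector cells, as Ifit1 did, and Cxcl10 was higher by 3.08, 3.88, 1.26 and 0.05. In R284S cells Edn1 was lower by 0.54 on the log2 scale beside differences of 0.01 to 0.15 for all 6 interferon-stimulated check genes. Those 6 genes were already high in R284S control cells, where Ifit1 read 11.51 against 3.94 in vector control cells.

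Ccn1, Ccn2 and Ankrd1, the genes most often used to read out YAP, were lower with dsDNA in the 3 STING lines, each by less than Edn1. Ccn2 and Ankrd1 were also lower in vector cells. Ccn1 read 11.95, 11.98, 11.94 and 11.75 in control and 11.97, 11.41, 11.40 and 11.46 in dsDNA samples of vector, hSTING, N154S and R284S cells. It was lower by 0.57, 0.54 and 0.29 on the log2 scale in the 3 STING lines and higher by 0.02 in vector cells. The dsDNA samples of the 3 STING lines thus lay below all control samples, and that of the vector line did not.

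Ankrd1 read 11.33, 11.38, 11.51 and 11.53 in control and 11.22, 10.89, 11.07 and 11.33 in dsDNA samples. Its differences of -0.11, -0.49, -0.44 and -0.20 had the same order over the lines as those of Ccn1, and its groups met at 11.33. Ccn2 read 11.39, 11.39, 11.27 and 11.25 in control and 11.21, 11.07, 11.04 and 11.04 in dsDNA samples. Its differences were the smallest of the 3, between -0.32 and -0.18, yet every dsDNA sample lay below every control sample. This used its brighter probe set, and with the mean of both the R284S difference was 0.11. Across all genes 1.67% had the 4 dsDNA arrays below the 4 control arrays. The second Ccn2 probe set read only 3.30 to 4.53, and with dsDNA it was lower in vector, hSTING and N154S cells and higher in R284S cells, at 4.04 against 3.61.

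These signals lay near the top of the scale, where the brightest probe set of an array read 13.11 to 13.22. Ccn1 was within 1.76 and Ccn2 and Ankrd1 within 2.28 of the brightest probe set on every array. Thbs1, the gene for thrombospondin-1, which activates latent TGF-beta, was within 0.63 of it. Thbs1 read 12.78, 12.75, 12.72 and 12.61 in control and 12.78, 12.71, 12.66 and 12.53 in dsDNA samples. Its range over the 8 arrays was 0.25, the narrowest here, and its dsDNA differences lay between -0.08 and 0. Whether the array compressed differences at these signals was not tested.

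**Figure D2:**
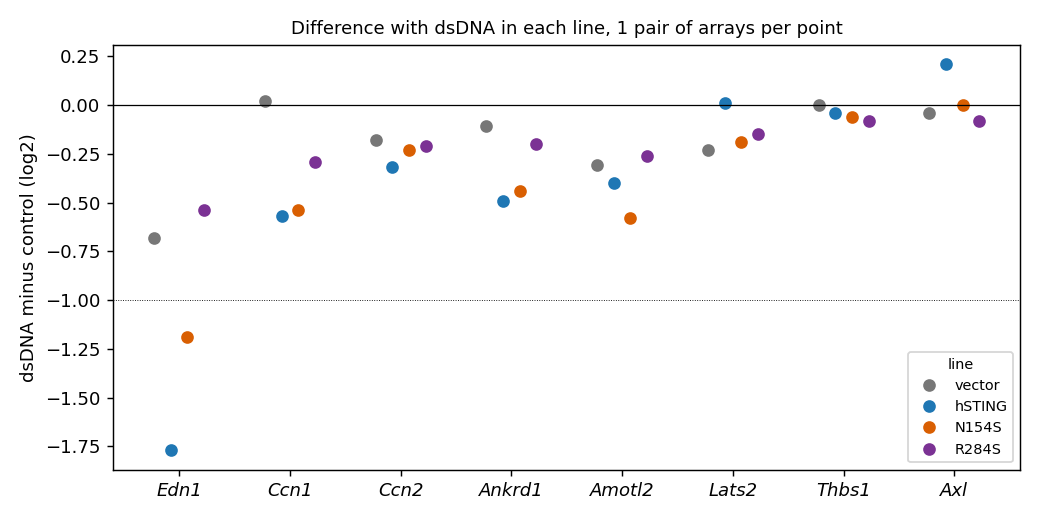
Difference between the dsDNA and the control array (log2, vertical axis) for each of the 8 genes, with 1 point per line and a dotted line at a 2-fold decrease. Edn1 in hSTING and N154S cells is below the dotted line at -1.77 and -1.19, and Axl and Thbs1 stay close to 0.

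Of the feedback inhibitors, Amotl2, an angiomotin family protein that binds YAP, was lower with dsDNA in all 4 lines. It read 7.18, 7.37, 7.69 and 7.31 in control and 6.87, 6.97, 7.11 and 7.05 in dsDNA samples, so every dsDNA sample was below every control sample, as for 1.67% of all genes. The differences were -0.31 in vector, -0.40 in hSTING, -0.58 in N154S and -0.26 in R284S cells. Lats2, the kinase that phosphorylates YAP, read 5.96, 5.93, 6.34 and 6.11 in control and 5.73, 5.94, 6.15 and 5.96 in dsDNA samples. It was lower by 0.23, 0.19 and 0.15 in vector, N154S and R284S cells and higher by 0.01 in hSTING cells, and the groups overlapped.

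Axl, which also restrains interferon and inflammatory signalling in immune cells, had another pattern, in which the lines differed more than the treatments. It read 10.35, 10.59, 10.86 and 10.70 in control and 10.31, 10.80, 10.86 and 10.62 in dsDNA samples. Vector cells had the lowest signals, below every sample of the other lines, and N154S cells the highest. With dsDNA Axl was higher by 0.21 in hSTING cells and differed by -0.08 to 0 in the others. Its ligand gene Gas6 read 9.89 and 9.91 in vector, 9.67 and 9.36 in hSTING, 9.77 and 9.62 in N154S and 9.95 and 9.89 in R284S cells, control first. Within each treatment its lowest signal was that of the hSTING line.

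Over the 8 genes, 4 (Edn1, Ccn2, Ankrd1, Amotl2) were lower with dsDNA in all 4 lines and 0 were higher in all 4. Across all genes, 10.4% were lower and 9.82% higher in all 4 lines. Ccn2 counts by its brighter probe set only, since with the mean of both its R284S difference was positive. The median difference of the 8 genes was -0.145 in vector, -0.36 in hSTING, -0.335 in N154S and -0.205 in R284S cells, where the medians of all genes were between -0.01 and 0. Without Edn1 the medians were -0.11, -0.32, -0.23 and -0.20. Since the genes were chosen with the dsDNA response of Edn1 in view, these counts and medians are not evidence for a response of the group. Between lines within a treatment, Edn1 in hSTING cells with dsDNA read 4.94 against 6.19 in vector cells, a 2.38-fold lower signal where 0.721% of all genes were 2-fold or more lower. Over the 16 pairs of arrays compared, the largest difference of any of the other 7 genes was 0.58 on the log2 scale.

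The 4 lines were then compared over both treatments, which asked whether the presence or the mutation of STING went with a different level of these genes. The fit in limma had construct and treatment as additive terms, and its error combines noise with any unequal response of the lines to dsDNA. None of the 8 genes passed an adjusted p of 0.05 in any of the 6 comparisons of lines. The background was low too: 0.0992% of genes passed for hSTING against vector, 1.32% for N154S against vector and 2.04% for R284S against vector. Between the STING lines it was 0% for N154S against hSTING, 0.951% for R284S against hSTING and 0.00902% for R284S against N154S. For N154S against hSTING 1974 genes had an unadjusted p under 0.05, and 125 passed in limma with trended, robust variances. At an unadjusted p under 0.05 there were 2, 3, 1, 1, 0 and 0 of the 8 genes in these comparisons, in the same order, and 9.28%, 14.9%, 14.3%, 8.9%, 13.7% and 7.07% of all genes.

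Axl was the gene closest to the threshold. It was higher than in vector cells by 0.53 in N154S (SE 0.13, limma adjusted p = 0.117), by 0.365 in hSTING (adjusted p = 0.499) and by 0.33 in R284S cells (adjusted p = 0.304). Both samples of each STING line were above both vector samples. With the filter on dim genes the N154S difference passed, with an adjusted p of 0.0461, and with trended, robust variances the value was 0.0119. Over its other alternatives the adjusted p lay between 0.0715 and 0.189.

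Edn1 differed from vector cells by -0.705 in hSTING (SE 0.28, adjusted p = 0.53), -0.335 in N154S (adjusted p = 0.644) and -0.64 in R284S cells (adjusted p = 0.369). Its intervals were the widest of the 8 genes, with unadjusted 95% intervals of -1.37 to -0.04 for hSTING and -1.30 to 0.02 for R284S, both of which reach past a 2-fold decrease. Amotl2 and Lats2 were higher in N154S than in vector cells by 0.375 (SE 0.13, adjusted p = 0.251) and 0.40 (SE 0.12, adjusted p = 0.202). For Ccn1 the differences from vector were -0.265, -0.29 and -0.355 in hSTING, N154S and R284S cells, with adjusted p = 0.408 for the last. The 95% intervals of Ccn2, Ankrd1 and Thbs1 against vector lay within -0.48 and 0.49 in all 3 lines, which leaves room for differences of up to that size.

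**Figure D3:**
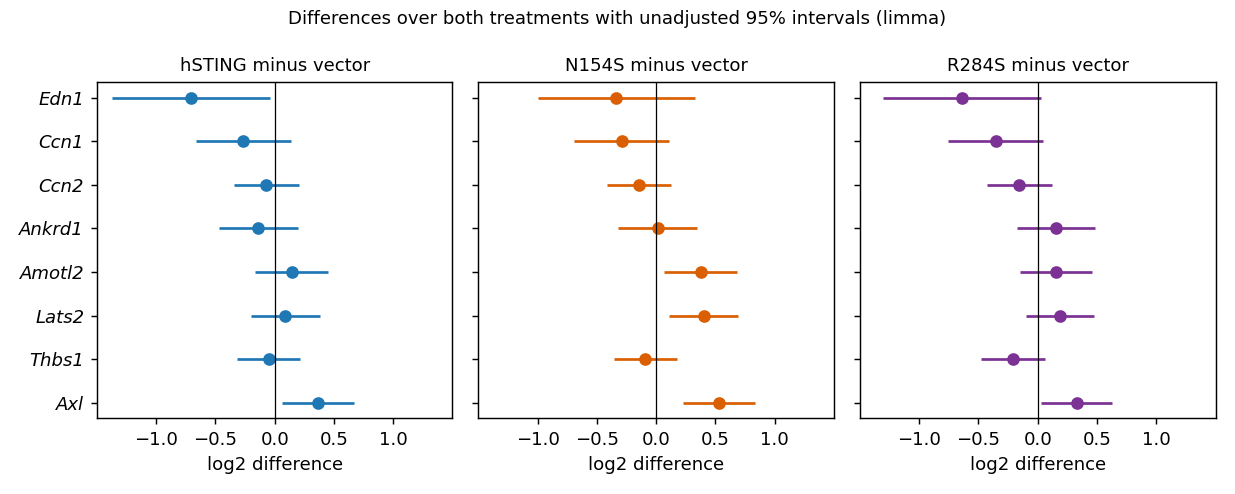
Log2 difference of each STING line from vector cells over both treatments (points, limma) with unadjusted 95% intervals (lines), for the 8 genes. None passed after adjustment over all genes; Axl lies furthest to the right in N154S cells, at 0.53.

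The other genes of the pathway were taken from 7 lists, some of whose members were not analysed here. Averaged over the 4 lines, 0 of the 22180 genes passed for dsDNA in limma (2395 had an unadjusted p under 0.05, and 4 passed with trended, robust variances), so 0 members of any list did. The lists are therefore described for dsDNA by counts of lines. Amot, Amotl1, Lats1, Tgfb1i1 and Tgfb2 stand in 2 lists each.

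Among 22 other YAP and TEAD targets, 9 were lower with dsDNA in all 4 lines and 4 (Myof, Fjx1, Foxf2, Ptpn14) were higher in all 4, where 10.4% and 9.82% of all genes were. The list medians were -0.025 in vector, -0.21 in hSTING, -0.205 in N154S and -0.03 in R284S cells. In hSTING cells 15 of the 22 genes were lower and 7 higher. There 1 gene was 2-fold or more lower, Nuak1 at -1.13, and 1 was 2-fold or more higher, Igfbp3 at 1.66. Igfbp3 was also higher by 0.70 in N154S cells, and Fjx1 by 0.84 in hSTING and 0.85 in N154S cells. Ajuba, a LIM protein that inhibits LATS kinases, read 8.07, 8.10, 8.33 and 8.29 in control and 7.78, 7.20, 7.99 and 7.98 in dsDNA samples, without overlap. With Arhgef17, 2 of the 22 genes had every dsDNA array below every control array, as had 1.67% of all genes. Against vector cells, 1 of 22 fell in N154S and 2 of 22 in R284S, and 0 rose, where 0.609% and 1.02% of all genes fell and 0.708% and 1.02% rose. Tgfb2, which encodes a TGF-beta ligand, fell in both, by a log2 difference of -1.10 in N154S (SE 0.13, adjusted p = 0.0151) and -1.345 in R284S cells (SE 0.13, adjusted p = 0.00594). The secreted protein gene Ccdc80 fell by 1.08 in R284S cells (SE 0.15, adjusted p = 0.0177). In hSTING cells 0 of 22 passed against vector, with 4 at an unadjusted p under 0.05. In R284S against hSTING cells, where 0.951% of all genes passed, 1 of 22 fell. This was Tgfb2, by 1.34 (SE 0.13, adjusted p = 0.0104).

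The components of the Hippo pathway went in both directions with dsDNA. Of 24 measured, 4 (Wwtr1, Tead3, Amot, Taok2) were lower and 6 (Stk4, Sav1, Lats1, Mob1a, Mob1b, Map4k4) higher in all 4 lines, where 10.4% and 9.82% of all genes were. The list medians were between -0.045 and 0.02, and in hSTING cells single genes ranged from -1.02 for Tead3 to 1.15 for the cadherin gene Fat4. Yap1 itself read 8.47, 8.38, 8.35 and 8.39 in control and 8.46, 8.40, 8.43 and 8.27 in dsDNA samples. Wwtr1, which encodes TAZ, read 8.44 to 8.61 in control and 8.34 to 8.59 in dsDNA samples. The ranges of both genes overlapped between treatments. The 6 genes higher in all 4 lines had differences of 0.01 to 0.60. The upstream kinase gene Taok2 was lower by 0.17, 0.51, 0.48 and 0.18 in the 4 lines, vector first, and Amot, an angiomotin gene, by 0.16, 0.68, 0.69 and 0.22.

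The TEAD factors were not alike. Tead3 read 6.49, 6.53, 6.52 and 6.28 in control and 6.47, 5.51, 5.93 and 6.09 in dsDNA samples, and was lower in all 4 lines, by 1.02 in hSTING cells. Tead1 read 9.17, 8.99, 8.80 and 8.60 in control and 9.05, 9.04, 8.69 and 8.58 in dsDNA samples, so its lines differed by more than its treatments. Its difference from vector was -0.52 in R284S cells (SE 0.12, adjusted p = 0.094). Tead2 and Tead4 differed from vector by at most 0.295 over both treatments. Of the 24 components, Frmd6, a FERM domain protein upstream of the kinases, was the one that fell against vector, at -0.89 in R284S cells (SE 0.13, adjusted p = 0.022).

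The SRF and MRTF list leaned lower with dsDNA in each line. Of 33 genes, 17 were lower in all 4 lines and 2 (Elk4, Fosb) were higher in all 4, against the same background of 10.4% and 9.82%. The list medians were -0.09 in vector, -0.24 in hSTING, -0.19 in N154S and -0.13 in R284S cells. In hSTING cells 22 of the 33 genes were lower and 11 higher. There 0 were 2-fold or more lower and 1 was 2-fold or more higher, the early growth response gene Egr1. Egr1 differed by -0.05 in vector, 1.12 in hSTING, 0.70 in N154S and 0.05 in R284S cells. Srf itself read 8.48, 8.28, 8.14 and 7.99 in control and 8.18, 7.56, 7.59 and 7.52 in dsDNA samples, at differences of -0.30, -0.72, -0.55 and -0.47. Vector cells with dsDNA lay above N154S and R284S control cells, so the groups overlapped. The coactivator gene Mrtfa read 7.86, 7.83, 8.16 and 7.90 in control and 7.77, 7.18, 7.60 and 7.75 in dsDNA samples, without overlap. With the LIM protein genes Fhl2 and Zyx, 3 of the 33 genes had every dsDNA array below every control array, as had 1.67% of all genes. Mrtfb overlapped, at 6.76 to 6.92 and 6.52 to 7.01.

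Over both treatments the median difference of the list from vector cells was -0.095 for hSTING, -0.275 for N154S and -0.29 for R284S, against -0.015, 0.005 and 0.01 over all genes, with 23, 25 and 26 of the 33 genes below 0. In R284S cells, where 1.02% of all genes fell, 3 of 33 did, the smooth muscle calponin Cnn1 by 1.02 (SE 0.19, adjusted p = 0.0486), the LIM protein Fhl1 by 0.925 (SE 0.15, adjusted p = 0.0355) and the early growth response factor Egr2 by 0.805 (SE 0.14, adjusted p = 0.0448). In N154S cells, where 0.609% of all genes fell, Egr2 did, at -0.865 (SE 0.14, adjusted p = 0.0445), and in hSTING cells 0 of 33 passed, with 2 at an unadjusted p under 0.05. Several of these genes mark smooth muscle, and the marker Actg2 read 10.81 and 10.61 in vector against 8.70 and 8.48 in R284S cells, control first. Of the fibroblast markers, Col1a1 read 11.53 in vector and 10.16 in R284S control cells, and Col3a1 read 9.05 and 6.61. The part of these markers in the list's differences was not tested.

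**Figure D4:**
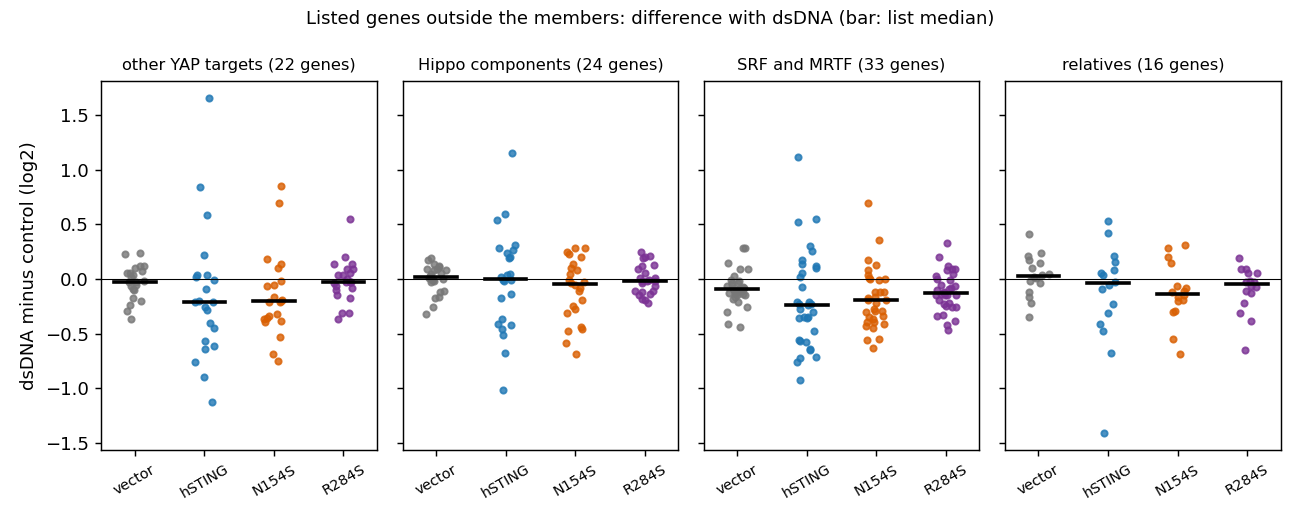
Difference between dsDNA and control (log2, vertical axis) in each line for genes of 4 lists, without the 8 genes described; each point is 1 gene and the black bars are list medians. The bars of the SRF and MRTF list are below 0 in all 4 lines, from -0.09 in vector to -0.24 in hSTING cells, and those of the Hippo components lie at 0.02 or less from 0 in 3 lines and at -0.045 in N154S cells.

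Among 16 family relatives of the 8 genes, 1 fell against vector in N154S cells, 3 did so in R284S cells, and 0 rose, where 0.609% and 1.02% of all genes fell and 0.708% and 1.02% rose. Ccn3, a CCN family gene with growth-restraining activity, read 8.14 and 8.18 in vector, 7.56 and 7.64 in hSTING, 6.67 and 6.55 in N154S and 6.68 and 6.61 in R284S cells, control first. It fell in both mutant lines, at -1.55 in N154S (SE 0.12, adjusted p = 0.00604) and -1.515 in R284S cells (SE 0.12, adjusted p = 0.00283). Thbs2, the antiangiogenic relative of Thbs1, fell by 1.225 in R284S cells (SE 0.13, adjusted p = 0.00845), and Ccn4 fell by 0.785 there (SE 0.14, adjusted p = 0.0466). In R284S against hSTING cells, where 0.951% of all genes passed, 2 of the 16 fell. These were Ccn3, by 0.955 (SE 0.12, adjusted p = 0.0237), and Thbs2, by 0.88 (SE 0.13, adjusted p = 0.0369). With dsDNA Ccn3 differed by -0.12 to 0.08, while Ccn4, Ccn5, Thbs3 and Amot were lower and Lats1 was higher in all 4 lines. Across all genes, 10.4% were lower and 9.82% higher in all 4 lines. Ccn5, another CCN family gene, differed by -0.35, -1.41, -0.55 and -0.31 in the 4 lines, vector first. The differences of these relatives were not tested against those of the 8 genes.

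In the endothelin system 0 of 6 measured genes passed in any comparison of lines. Ednrb, the type B receptor gene, read 5.33 and 5.55 in vector, 4.57 and 4.16 in hSTING, 4.18 and 4.0 in N154S and 4.40 and 5.16 in R284S cells, control first. Its difference from vector was -1.35 in N154S cells (SE 0.26, adjusted p = 0.0686), with N154S signals below the array median. Ece1, the protease that cuts the endothelin precursor, read 8.47 to 8.94 on the 8 arrays, and Edn2 and Edn3 read at most 5.01. No member of this list was lower with dsDNA in all 4 lines, where 10.4% of all genes were.

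The serum and TGF-beta response list split. Of 12 measured genes, 3 (Tgfb2, Tgfb3, Ltbp2) were lower and 4 (Skil, Ereg, Il11, Lif) were higher with dsDNA in all 4 lines. Across all genes, 10.4% were lower and 9.82% higher in all 4 lines. Lif, a cytokine of the interleukin-6 family, was higher by 0.05 in vector, 2.38 in hSTING, 1.26 in N154S and 0.26 in R284S cells. The ligand gene Tgfb3 read 10.21, 9.99, 9.69 and 8.94 in control and 9.79, 8.94, 8.92 and 8.56 in dsDNA samples, at differences of -0.42, -1.05, -0.77 and -0.38. It fell by 1.25 in R284S against vector cells (SE 0.18, adjusted p = 0.0227), where 1.02% of all genes fell.

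The genes whose pattern was most like that of Edn1 were sought over the 8 arrays among 1368 other genes with a mean at or above the median gene and a range of at least 1. Pearson's r is given as a description, since the 8 points share 4 lines and 2 treatments and Edn1 was chosen for its pattern. The highest were Atoh8, a basic helix-loop-helix factor (r = 0.968), Dbp, a transcription factor of the circadian clock (0.962), Tead3 (0.951), Efnb2, the ligand ephrin-B2 (0.95), and Tmem119 (0.944). Atoh8 read 6.96, 6.90, 6.99 and 6.81 in control and 6.75, 5.63, 6.17 and 6.27 in dsDNA samples. All 5 had their lowest signal in hSTING cells with dsDNA, as Edn1 did. This follows largely from their choice by r with Edn1 over the same arrays. By Spearman's rank correlation only Atoh8 stayed among the first 5.

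For the mean of Ccn1, Ccn2 and Ankrd1 the first 5 were Atoh8 (r = 0.968), the co-chaperone gene Bag2 (0.967), Tnrc18 (0.954), Edn1 itself (0.951) and the Wnt receptor gene Fzd2 (0.947), over the same 8 arrays. Among the 8 genes Edn1 had r = 0.905 with Ccn1, 0.894 with Ccn2, 0.77 with Ankrd1 and 0.632 with Amotl2. With Thbs1 it was 0.472, with Lats2 0.179 and with Axl -0.403. Axl and Lats2 had r = 0.768 with each other.

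**Figure D5:**
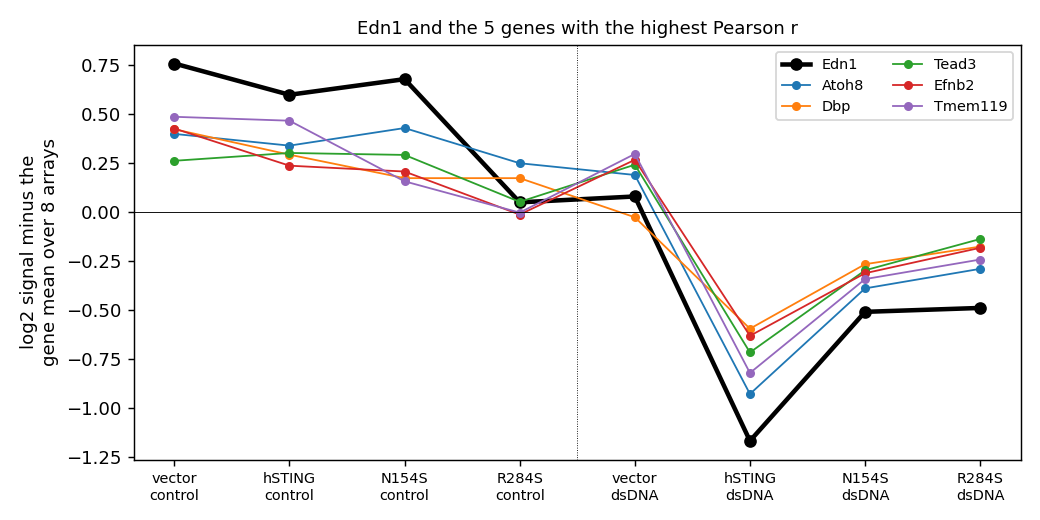
Log2 signal minus the mean of the gene over the 8 arrays (vertical axis) on each array (horizontal axis) for Edn1 (black) and the 5 genes with the highest Pearson r. Edn1 read from 6.87 in vector control cells to 4.94 in hSTING cells with dsDNA. All 6 lines have their lowest point on that array, which follows largely from the choice of the 5 genes by r.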

How the data were processed

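Expression was measured on 8 Affymetrix arrays, 1 for each of 4 constructs and 2 treatments. The authors deposited log2 signals with 2 decimals for 41345 probe sets, made with Affymetrix Expression Console 1.3.1.187 per the submitters' processing notes. The labels name no summarisation algorithm. The sorted values of any pair of arrays differed by at most 0.25. Of the probe sets, 23521 had 1 symbol in the platform annotation, which gave 22180 genes, each by its brightest probe set. The number of arrays limits the precision.

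Lines were compared with limma 3.58.1 in R 4.3.3 (lmFit and eBayes, construct and treatment as additive terms, 3 residual degrees of freedom, adjusted p under 0.05 by Benjamini-Hochberg across the 22180 genes). The p-values measure only the spread between these samples. The fit was tested on simulated data. Differences of 2 arrays have no test; for a 2-fold call the brighter signal had to reach the median named gene of its array. The 8 genes, the lists and the rule for naming genes (the largest changes that passed, up to 4 per direction, and a fixed panel) were chosen with earlier results of these data known, and other genes named for their dsDNA pattern were named after their values were seen. Alternatives were a filter on dim genes, a trend with robust variances, quantile normalization, the mean of probe sets, and leaving out each pair of arrays.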

Additional observations from a re-analysis of the deposited data

How the results depend on the processing

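Over the alternatives, the 8 genes kept their direction and side of the threshold in 283 recomputed comparisons of lines; 2 newly passed and 3 turned sign. Axl in N154S against vector newly passed when dim genes were left out and with trended, robust variances. Signs turned for Ccn2 with the mean of its probe sets (hSTING against vector 0.13, R284S against N154S 0.10) and for Thbs1 in N154S against hSTING with quantile normalization (0.0081). Counts of genes that passed moved by more than 1.5 times. When dim genes were left out they were 662 for N154S and 761 for R284S against vector, and 16 for N154S and 455 for R284S against hSTING. With trended, robust variances they were 726, 854, 125 and 584 in that order, 12 for R284S against N154S and 4 for dsDNA. Leaving out 1 line's pair of arrays gave 0 (without N154S) to 47 genes (without R284S) for hSTING against vector. It gave 178 (without R284S) to 594 (without hSTING) for N154S against vector and 129 (without N154S) to 654 (without hSTING) for R284S against vector. For R284S it gave 47 (without N154S) to 79 (without pBabe) against hSTING and 0 (without pBabe) to 7 (without hSTING) against N154S, and for dsDNA 0 to 1 (without pBabe). The cause was not tested. Without the condition on the brighter array, 91 genes differed 2-fold or more with dsDNA in vector and 59 in R284S cells. All 12 differences of 2 arrays that moved by more than the moderated SD of their gene belonged to Ccn2 with the mean of its probe sets. Of the 5 genes most like Edn1, 1 was shared by Spearman's rank correlation. With 1 array per group, differences within a treatment have no error. The labels give no replicate numbers; the fit pairs dsDNA with control within each line through its construct term.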
